A study of Bos taurus with 6 samples.

Results

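The FOXO pathway of skeletal muscle was followed through 10 genes in RNA from the longissimus thoracis (LT) muscle of 6 Korean cattle (Hanwoo) steers. The genes were the factors FOXO1, FOXO3 and FOXO4, the muscle ubiquitin ligase genes FBXO32, TRIM63 and FBXO30, the FOXO targets DEPP1, GADD45A and CDKN1B, and RASSF4, the gene within which DEPP1 lies. All 10 were found by symbol among the 23015 rows of the count files, each in a single row, and all 10 passed the filter on low counts that left 15039 rows to be tested. The list was chosen by its link to DEPP1, whose count was known to differ between the groups, as were those of RASSF4 and GADD45A. The values of the 10 genes in this comparison are therefore given as a description, without a test.

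The high-NFMP group held steers 3-8, 10-8 and 10-9, aged 32.5, 33.8 and 34.5 months. The low-NFMP group held steers 3-1, 3-3 and 10-16, aged 37.8, 33.7 and 35.4 months. NFMP is the number of fine marbling particles, the small flecks of fat that image analysis counts on the cut surface of the muscle, and it was the only trait on which the groups were formed. The authors also report a higher marbling score, rib eye area and fineness index for the sequenced high-NFMP steers, so the groups differed in more than NFMP. All steers were fed commercial feed in the conventional manner, and each gave 1 library from a piece of LT, which holds fat and vessel cells as well as muscle fibres.

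FOXO proteins are forkhead transcription factors that insulin and growth factors hold in check. When the kinase AKT is active, it phosphorylates them and 14-3-3 proteins keep them out of the nucleus. When that signal falls, as in fasting, they enter the nucleus and switch on genes for protein breakdown, autophagy, stress defence and cell cycle arrest, which in skeletal muscle leads to loss of fibre mass.

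The libraries summed to between 16283873 and 17192750 counts, and the 10 genes together made up between 0.128% and 0.175% of a library. The libraries came from a 3′ method, in which reads gather at the poly(A) end of a transcript. Levels below are normalized counts, which are the deposited counts brought to a common effective library size, and they are compared between steers and not between genes. Fold changes are those fitted by edgeR across all tested genes, as log2 of high over low NFMP. A gene is said to have passed the threshold where its unadjusted p was below 0.05 and its fold change exceeded 2.

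Of the 3 FOXO factors, FOXO1 and FOXO3 had close group means, and FOXO4 had the higher mean in the high-NFMP group. FOXO1 had 4702, 4641 and 5289 normalized counts in steers 3-8, 10-8 and 10-9 of the high-NFMP group, and 4635, 5057 and 5663 in the low-NFMP steers 3-1, 3-3 and 10-16. The groups overlapped, and the fitted log2 change was -0.07 (standard error, SE, 0.18). As each library came from a whole piece of muscle, fewer cells of a type and less RNA per cell cannot be told apart in this or any later difference. FOXO3, the family member most closely tied to muscle wasting, had 3192, 2674 and 3687 normalized counts in the high-NFMP steers and 2356, 2869 and 4319 in the low-NFMP steers. Its group means were nearly equal, at 3184 ± 507 and 3181 ± 1018 (SD, n = 3 in each), with a log2 change of 0.00 (SE 0.23).

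FOXO4, a factor that shares many targets with FOXO1 and FOXO3, had 595.9, 630.1 and 868.5 normalized counts in the high-NFMP steers and 509.1, 410.9 and 615.8 in the low-NFMP steers. One low-NFMP steer, 10-16, lay above 1 high-NFMP steer, 3-8. The log2 change was 0.45 (SE 0.21) and fell to 0.28 without steer 10-9.

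**Figure D1:**
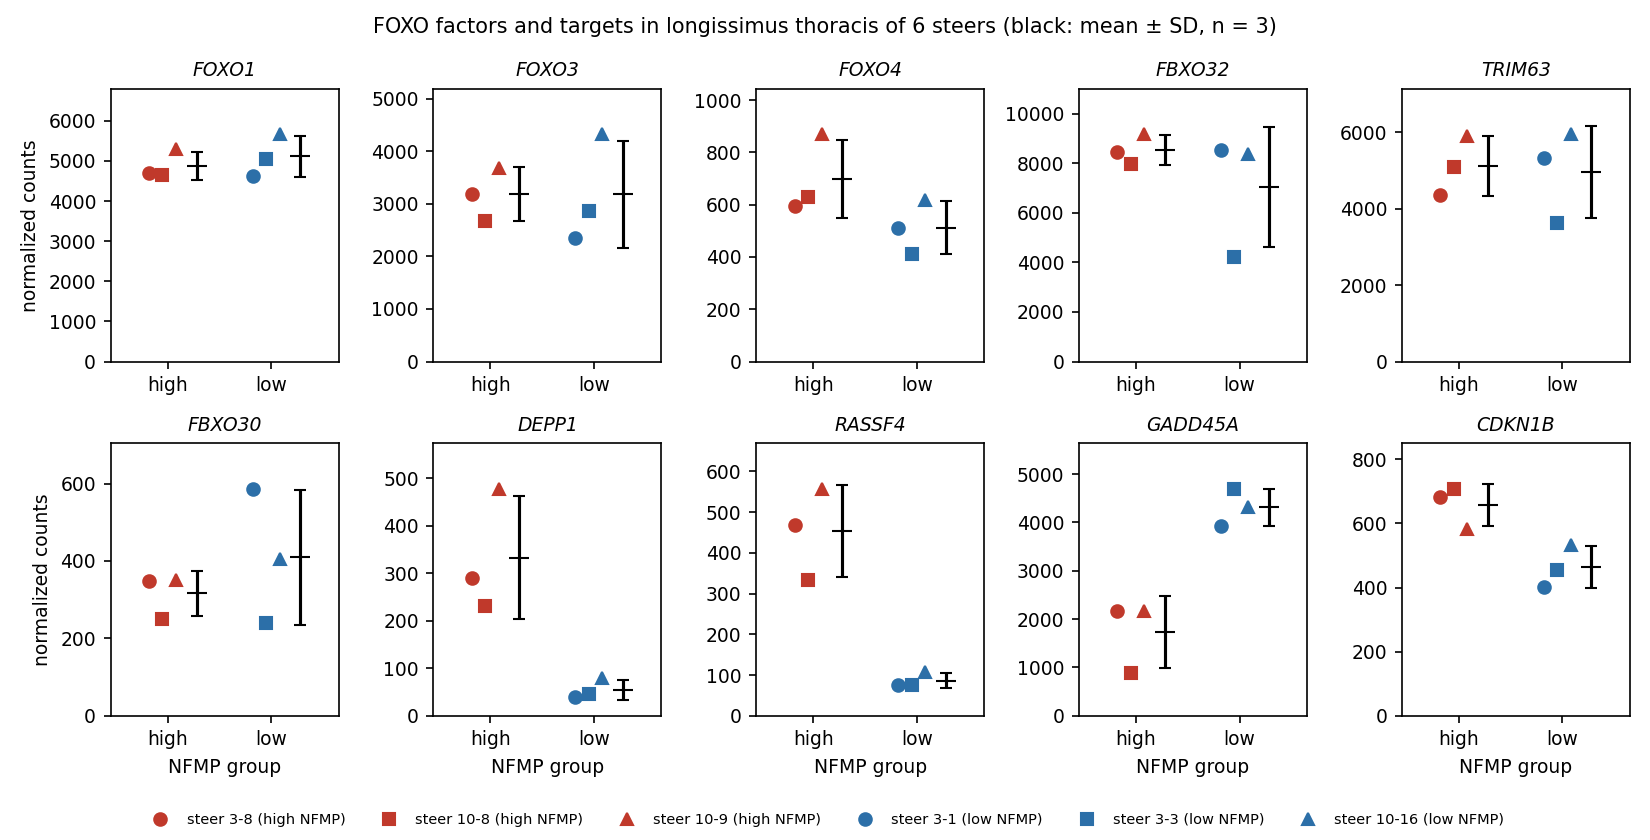
Normalized counts of the 10 genes in each steer. Each panel has its own vertical axis from 0 in normalized counts, red symbols are the 3 high-NFMP steers, blue symbols the 3 low-NFMP steers, and the black mark is the group mean with its SD (n = 3). The groups are apart for DEPP1, RASSF4, GADD45A and CDKN1B and overlap for the other 6 genes.

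DEPP1, a FOXO target that takes part in the control of autophagy, was several times higher in the high-NFMP group. It was counted 286, 209 and 477 times in steers 3-8, 10-8 and 10-9, and 42, 50 and 78 times in steers 3-1, 3-3 and 10-16. The lowest high-NFMP steer, 10-8, had 232.3 normalized counts, and the highest low-NFMP steer, 10-16, had 78.7. The fitted difference was 6.06-fold, a log2 change of 2.60 (SE 0.33). The 3 high-NFMP steers also differed among themselves by about as much, in relative terms, as the low-NFMP steers did, with a coefficient of variation of 38.6% against 37.6%.

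RASSF4, which encodes a Ras association domain protein, showed nearly the same picture. It had 468.2, 334.5 and 557.6 normalized counts in the high-NFMP steers and 76.6, 75.0 and 108.0 in the low-NFMP steers. The groups did not overlap, and the fitted difference was 5.24-fold, a log2 change of 2.39 (SE 0.26). In both groups the steer with the most DEPP1 counts, 10-9 or 10-16, was also the steer with the most RASSF4 counts.

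Because DEPP1 lies within RASSF4 in RefSeq's annotation of the cattle assembly ARS-UCD2.0, the counts of both genes were set against each other in each steer, where library size cancels out. DEPP1 counts were 61.9%, 69.4% and 85.8% of RASSF4 counts in steers 3-8, 10-8 and 10-9 of the high-NFMP group, and 52.5%, 61.7% and 72.9% in the low-NFMP steers 3-1, 3-3 and 10-16. The log2 ratio was -0.48 ± 0.24 in the high-NFMP group and -0.69 ± 0.24 in the low-NFMP group (SD, n = 3 in each). The difference of 0.21 was smaller than the spread between steers of a group, and the groups overlapped. If DEPP1 reads were also counted on RASSF4, this ratio sets a part against its whole. A small difference in it then cannot show that both genes vary together.

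RASSF4 had more counts than DEPP1 in each of the 6 steers. If each DEPP1 read had also been counted on RASSF4, the counts left to RASSF4 alone would be 176, 92 and 79 in the high-NFMP steers and 38, 31 and 29 in the low-NFMP steers. This remainder was 119.9 ± 51.9 normalized counts in the high-NFMP group and 31.4 ± 4.27 in the low-NFMP group (SD, n = 3 in each), and the groups did not overlap. Its fitted log2 change was 1.93 (SE 0.36), lower than that of RASSF4 as deposited. The remainder did not follow the steer order of DEPP1. Its lowest high-NFMP value was in steer 10-9, at 79.2 normalized counts, and its highest low-NFMP value in steer 3-1, at 36.4. Whether reads were in fact counted on both genes was not tested, since the counts do not say which reads they came from.

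The next genes on either side were examined in the same way. ZNF22, a zinc finger gene, was at 84.4 ± 19.8 normalized counts in the high-NFMP group and 82.7 ± 36.0 in the low-NFMP group (SD, n = 3 in each), a log2 change of 0.03 (SE 0.34) with an adjusted p of 0.983 by edgeR's quasi-likelihood test. TMEM72 on the other side had at most 2 counts in a library and was not tested.

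**Figure D2:**
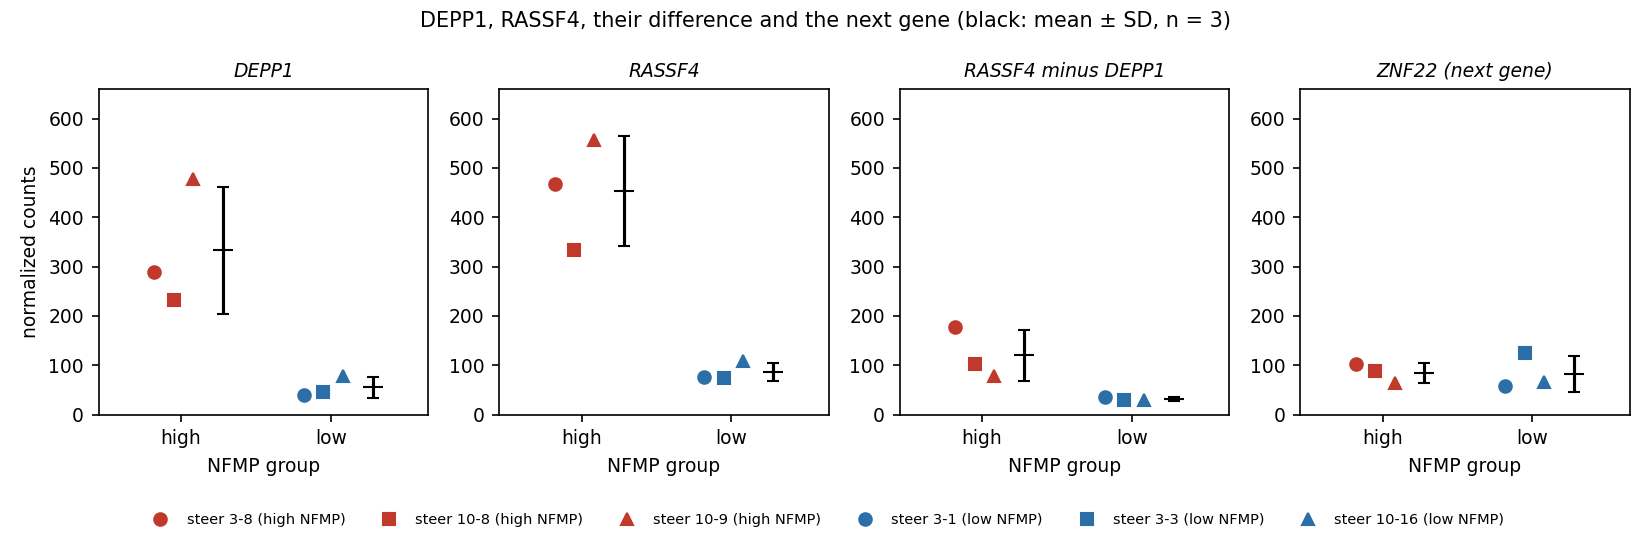
Normalized counts of DEPP1, of RASSF4, of RASSF4 after subtraction of the DEPP1 counts, and of the neighbouring gene ZNF22 in each steer, on one vertical axis from 0. Black marks are group means with SD (n = 3). The high-NFMP steers (red) lie above the low-NFMP steers (blue) in the first 3 panels, with a smaller gap for the remainder, and overlap with them for ZNF22.

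The 2 classical atrophy ligase genes did not share the difference in DEPP1. FBXO32, which encodes atrogin-1 (MAFbx), had 8465, 7980 and 9169 normalized counts in the high-NFMP steers and 8529, 4231 and 8358 in the low-NFMP steers. Steer 3-3 stood far below the other 5, and without it the log2 fold change went from 0.28 (SE 0.24) to 0.01. TRIM63, which encodes MuRF1, a ligase of the sarcomere, had 4347, 5104 and 5902 normalized counts against 5319, 3622 and 5944, a log2 change of 0.04 (SE 0.21). Steer 3-3 was again the lowest.

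FBXO30, which encodes the atrophy ligase MUSA1, varied widely among the low-NFMP steers. It had 348.6, 250.0 and 351.0 normalized counts in the high-NFMP steers and 586.6, 238.7 and 403.8 in the low-NFMP steers. The highest and the lowest of all 6 steers were both in the low-NFMP group. The log2 change was -0.37 (SE 0.28), and it was -0.02 without steer 3-1. With age as a term the direction turned, to 0.21.

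GADD45A, a growth arrest and DNA damage gene that also takes part in the atrophy of muscle fibres, differed in the direction opposite to DEPP1. It had 2173, 879.0 and 2171 normalized counts in steers 3-8, 10-8 and 10-9 of the high-NFMP group, and 3938, 4698 and 4313 in the low-NFMP steers 3-1, 3-3 and 10-16. The groups did not overlap, and the level was 2.48-fold lower in the high-NFMP group, a log2 change of -1.31 (SE 0.29). Steer 10-8 was much the lowest, and without it the log2 change was -0.96, short of the limit of 2-fold.

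CDKN1B, which encodes the cell cycle inhibitor p27, had 682.0, 707.9 and 583.7 normalized counts in the high-NFMP steers and 402.8, 454.4 and 533.1 in the low-NFMP steers. The groups did not overlap, but the gap between steers 10-9 and 10-16 was smaller than the SD of 65.5 in the high-NFMP group and 65.6 in the low-NFMP group. The difference was 1.42-fold, a log2 change of 0.51 (SE 0.19), in the direction of DEPP1 but far smaller.

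Thus, of the 9 genes other than DEPP1, RASSF4 alone was more than 2-fold higher in the high-NFMP group, GADD45A was more than 2-fold lower, and the other 7 lay between -0.37 and 0.51 on the log2 scale. DEPP1, RASSF4 and GADD45A were the 3 of the 10 genes past the threshold, which 3.9% of all tested genes passed. The groups did not overlap in 4 of the 10 genes, as in 17.1% of all tested genes. For the 3 that lay higher in the high-NFMP group the share over all tested genes was 7.97%, and for the 1 that lay lower it was 9.16%. Because the 10 genes were listed with these values in view, nothing can be read from their share.

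Leaving out each steer in turn did not bring the other genes near DEPP1. The log2 change of DEPP1 stayed between 2.26 (without steer 10-9) and 2.98 (without steer 10-16), and that of RASSF4 between 2.23 and 2.61 without the same steers. Both were past the threshold in all 6 fits. For FOXO1 and FOXO3 the values lay between -0.14 and 0.04 and between -0.18 and 0.32. For FOXO4 and CDKN1B they stayed above 0, at 0.28 to 0.64 and 0.41 to 0.65.

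**Figure D3:**
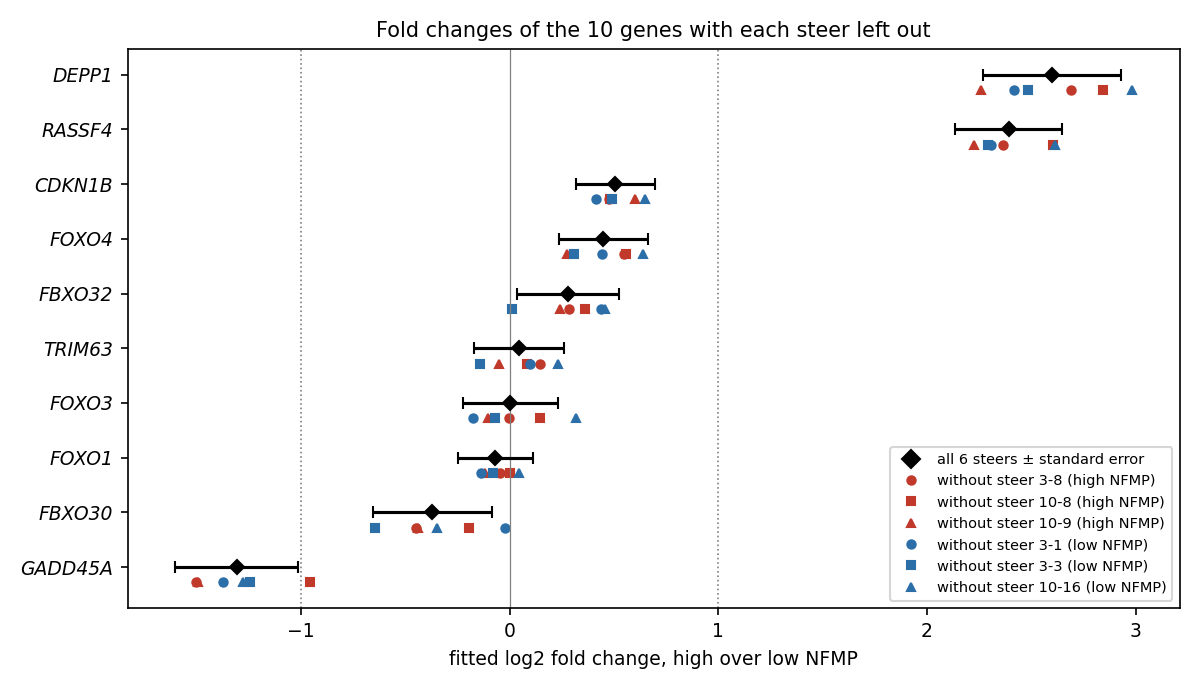
Fitted log2 fold changes (horizontal axis, high over low NFMP) of the 10 genes. Black diamonds with bars are the values from all 6 steers with SEs, and small symbols are the values with 1 steer left out; dotted lines mark a 2-fold difference. DEPP1 and RASSF4 stay above 2.2, GADD45A crosses -1 without steer 10-8, and the other 7 genes lie between both limits.

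The first number of the steer label is 3 or 10, with no statement of what it stands for. Each label number held steers of both groups, so the difference could be read within it. Among the steers labelled 3, the high-NFMP steer had 289.8 normalized counts of DEPP1 and the 2 low-NFMP steers a mean of 43.2, and among those labelled 10 the 2 high-NFMP steers had a mean of 355.3 against 78.7. RASSF4 was 6.18-fold and 4.13-fold higher within the label numbers 3 and 10. GADD45A was 1.99-fold and 2.83-fold lower in the high-NFMP steers. For FOXO3 the direction was not the same in both, with log2 ratios of 0.29 and -0.44.

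Beside DEPP1, 36 other genes known as FOXO targets in muscle, liver or other cells were examined, and 33 of them could be tested. This list and those below were chosen with earlier results of these data known, so they are no independent check. IRS2 in particular was already reported as higher by the authors. In the high-NFMP group 3 rose (PIK3IP1, IRS2 and BBC3), 0 fell, and 30 did not pass the threshold of edgeR's quasi-likelihood test. For comparison, 2.53% of all tested genes rose and 1.36% fell. At an unadjusted p below 0.05 without the fold limit, 6 of the 33 were higher and 4 were lower, against 5.73% and 5.74% of all tested genes. DESeq2 and quantile normalization with limma also called 3 higher and 0 lower. The median log2 change of the 33 was 0.00, against 0.02 for all tested genes.

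PIK3IP1, which encodes an inhibitor of phosphoinositide 3-kinase, had 100.3, 95.6 and 67.2 normalized counts in the high-NFMP steers and 23.0, 40.7 and 31.3 in the low-NFMP steers. The groups did not overlap, and the log2 change was 1.46 (SE 0.35, adjusted p = 0.0806 by edgeR). It passed the threshold whichever steer was left out.

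BBC3, which encodes the cell death protein PUMA, had 190.5, 175.6 and 292.9 normalized counts in the high-NFMP steers and 79.4, 53.7 and 189.8 in the low-NFMP steers, where steer 10-16 overlapped with the other group. Its log2 change was 1.03 (SE 0.41, adjusted p = 0.374 by edgeR). It no longer passed without steer 3-8, 10-9, 3-1 or 3-3, with a lowest value of 0.71 without steer 3-3, nor with the first label number (0.89) or age (1.26) as a term. Without steer 3-8 the log2 change was 1.12, above 2-fold, and the unadjusted p was 0.0545 by edgeR's quasi-likelihood test.

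IRS2 and INSR encode an adaptor and the receptor of the insulin signal that restrains FOXO, and FOXO proteins in turn raise their transcription. INSR had 1936, 1772 and 2134 normalized counts in the high-NFMP steers and 997.1, 928.1 and 1163 in the low-NFMP steers. The groups were far apart and the adjusted p was 0.0301 by edgeR, but at a log2 change of 0.92 (SE 0.18) the difference was below 2-fold. It exceeded 2-fold without steer 10-8 or 10-16, with a highest value of 1.05. IRS2, at 1.05 (SE 0.23, adjusted p = 0.0495 by edgeR), was just past 2-fold, and it was not without steer 10-9 (0.85) or 3-3 (0.93), with scaling by library totals alone (0.99) or with the first label number as a term (0.88). These were the 2 genes of this list with an adjusted p below 0.05, which 0.685% of all tested genes had. DESeq2 gave 5 such genes in the list and limma 1.

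The most counted of these targets were PDK4, which encodes a kinase that blocks pyruvate oxidation in fasting, TXNIP, an inhibitor of glucose uptake, and the repressor gene BCL6. PDK4 was at 27253 ± 3349 normalized counts in the high-NFMP group and 38690 ± 12288 in the low-NFMP group (SD, n = 3 in each), with overlapping groups and an adjusted p of 0.451 by edgeR. TXNIP was at 7945 ± 2691 against 12011 ± 1345, with a log2 change of -0.60 (SE 0.24, adjusted p = 0.349 by edgeR). BCL6 was level, at 6314 ± 1653 against 6330 ± 1263. SESN1, a sestrin gene that responds to stress, came closest to passing in the lower direction, with a log2 difference of -0.98 (SE 0.27, adjusted p = 0.156 by edgeR). In the low-NFMP group it had 6027 and 5038 normalized counts in steers 3-3 and 10-16, but 2530 in steer 3-1, within the range of the other group. SESN1 passed as lower with scaling by library totals alone, without a filter, with age as a term, and without steer 3-8 or 3-1. PPARGC1A, which encodes a coactivator of mitochondrial genes, had a log2 difference of 0.92 (SE 0.25, adjusted p = 0.145 by edgeR), and passed with age as a term and without steer 3-8 or 3-1.

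**Figure D4:**
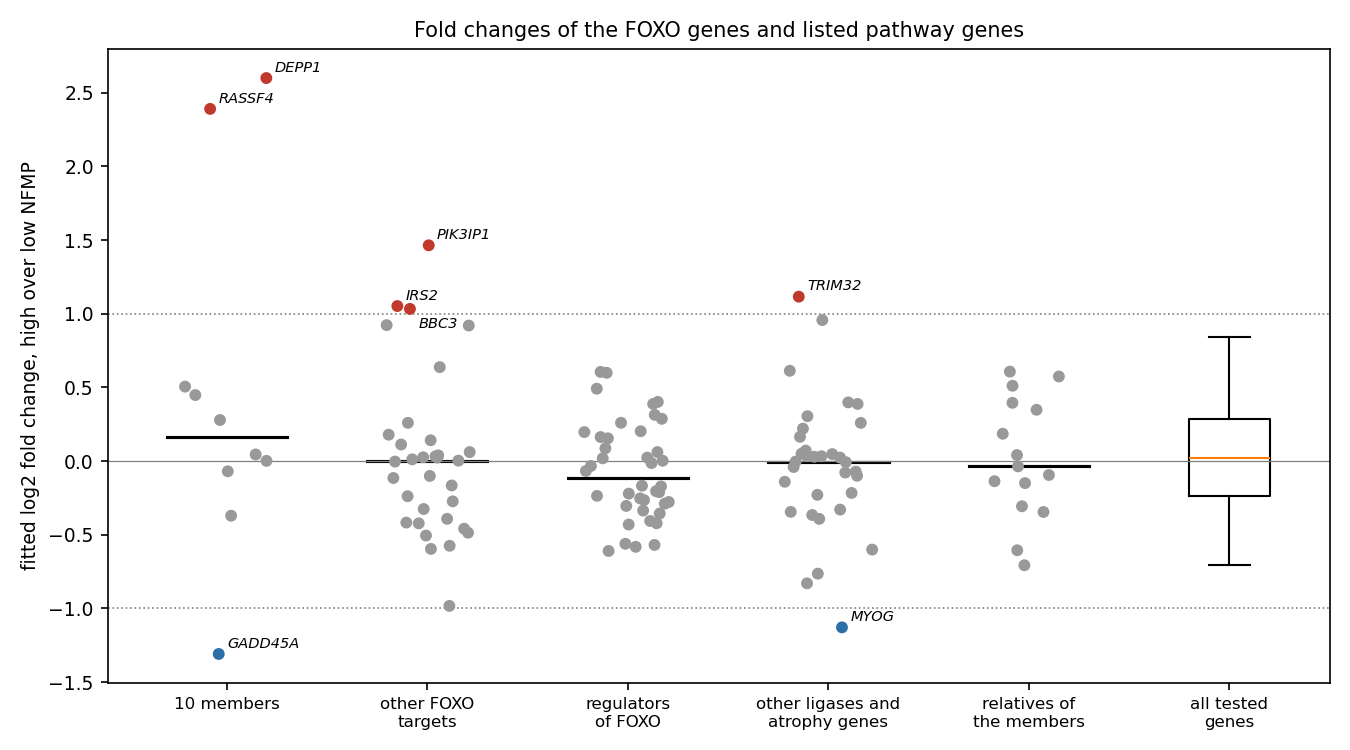
Fitted log2 fold changes (vertical axis, high over low NFMP) of the 10 genes and of 4 lists of related genes, 1 point per tested gene, with the list's median as a black bar. Red and blue points passed the threshold as higher and lower, dotted lines mark a 2-fold difference, and the box shows the quartiles of all 15039 tested genes with whiskers at percentiles 5 and 95. DEPP1 and RASSF4 stand alone above 2. The median of each of the 4 lists is within 0.12 of 0, and that of the 10 genes is 0.16.

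Among 40 genes that regulate FOXO proteins, such as the kinases of the phosphoinositide 3-kinase and AKT path, 14-3-3 genes, deacetylases and ubiquitin enzymes, all 40 were tested and 0 passed the threshold by edgeR's quasi-likelihood test. At an unadjusted p below 0.05 alone, 1 was higher and 6 were lower, where 5.73% and 5.74% of all tested genes were. The threshold was passed by 3.9% of all tested genes, and DESeq2 and quantile normalization with limma also called 0 past the threshold. The log2 fold changes lay between -0.61 and 0.61, with a median of -0.12. The most counted were the 14-3-3 gene YWHAE, at -0.17 (SE 0.20), PIK3R1, the regulatory subunit of phosphoinositide 3-kinase, at -0.41 (SE 0.18), and the kinase gene DYRK1A at -0.17 (SE 0.17).

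Of 33 other muscle ubiquitin ligases and genes of atrophy signalling, all 33 were tested, 1 rose (TRIM32) and 1 fell (MYOG) in the high-NFMP group, shares near the 2.53% and 1.36% of all tested genes. DESeq2 called 1 higher and 1 lower, limma called 0 and 0, and at an unadjusted p below 0.05 alone 2 were higher and 4 lower, next to 5.73% and 5.74% of all tested genes. TRIM32, a ligase that acts on the thin filament and the Z-disc, was rare, with 31.4, 80.0 and 48.1 normalized counts in the high-NFMP steers and 18.2, 26.8 and 28.3 in the low-NFMP steers (log2 fold change 1.12, SE 0.43, adjusted p = 0.324 by edgeR). It did not pass without steer 10-8 (0.74) or 3-1 (0.94), with limma (0.93), or with the first label number (0.83) or age (1.05) as a term. MYOG encodes myogenin, a muscle transcription factor that raises FBXO32 and TRIM63 after loss of nerve supply. It had 623.2, 514.5 and 606.8 normalized counts in the high-NFMP steers, and 1607, 1599 and 609.8 in the low-NFMP steers 3-1, 3-3 and 10-16. The log2 change was -1.13 (SE 0.31, adjusted p = 0.186 by edgeR), and it no longer passed without either steer 3-1 or steer 3-3 (-0.93 for each), with limma (-0.99) or with the first label number as a term (-0.75). Steer 10-16 lay within the range of the high-NFMP steers. Among the most counted genes of this list, ATF4 and UBB had log2 fold changes of 0.03 and -0.01, and the median of the list was 0.00.

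The relatives of the 10 genes were also examined, and of 18 listed, 15 were tested and 0 passed the threshold by edgeR's quasi-likelihood test. At an unadjusted p below 0.05 alone, 2 were higher and 1 was lower, beside 5.73% and 5.74% of all tested genes, and DESeq2 and quantile normalization with limma called 0 past the threshold. FOXO6, the remaining FOXO factor, was at 251.3 ± 31.2 normalized counts against 257.6 ± 83.0 (SD, n = 3 in each). GADD45B had 1119, 1086 and 1475 normalized counts in the high-NFMP steers and 1234, 636.7 and 600.7 in the low-NFMP steers, a log2 change of 0.57 (SE 0.26) that was opposite in sign to that of GADD45A, with an adjusted p of 0.431 by edgeR. GADD45G, at -0.09 (SE 0.17), was level between the groups. FOXP1 and RASSF8, also among the 3 most counted relatives, were at 0.35 (SE 0.19) and 0.19 (SE 0.24). TRIM54 and TRIM55, the relatives of TRIM63 in the list of ligases, were at 0.22 (SE 0.19) and 0.39 (SE 0.37).

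The genes whose pattern over the 6 steers was most like that of DEPP1 were sought among all tested genes, by the root-mean-square difference of log2 normalized counts centred on each gene's mean. RASSF4 was the nearest, with a difference of 0.217. As DEPP1 lies within RASSF4, reads counted on both genes would by themselves make their patterns alike, and the search was not repeated without them. The next 4 were the small nuclear RNA (snRNA) genes LOC112442857, LOC112442855, LOC112446130 and LOC112444936, with differences between 0.444 and 0.482 and log2 fold changes between 1.95 and 2.63. Among the 10 genes, FOXO4 came next after RASSF4, as number 968 of 15038, with a difference of 1.09. These 4 were picked by their likeness to DEPP1, and snRNA genes as a class were not tested.

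Markers of the cell types that LT can hold were examined beside these results. The 9 muscle fibre markers were detected in each library and 0 of them passed the threshold or an unadjusted p below 0.05 by edgeR, nor did DESeq2 or limma call any. Their summed normalized counts lay between 1690820 and 2034990 in the high-NFMP steers and between 1703640 and 2111400 in the low-NFMP steers. All 7 adipocyte markers had a positive log2 fold change, between 0.47 and 0.89, and in 4 of them the high-NFMP group lay wholly above the other, as in 7.97% of all tested genes. None of the 7 passed the threshold, with 3 higher at an unadjusted p below 0.05 by edgeR (5.73% of all tested genes) and 0 past the threshold by DESeq2 and by limma. With a steer left out, CIDEC passed in 3 fits, with a highest value of 1.09, and PLIN1 in 1, with a highest value of 1.08. The sum of the 7 markers was 9282 in steer 3-8, 4001 in steer 10-8 and 3356 in steer 10-9, and between 2988 and 4145 in the low-NFMP steers. Without steer 3-8, LEP, FABP4 and PLIN1 turned to log2 differences of -0.51, -0.33 and -0.06, while ADIPOQ, CIDEC, CFD and LIPE stayed positive whichever steer was left out, with a lowest value of 0.32. Without the same steer, the log2 difference was 2.69 for DEPP1 and 2.36 for RASSF4.

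The 8 endothelial markers summed to between 1128 and 1717 in the high-NFMP group and between 1078 and 1389 in the low-NFMP group. The sums of the 6 fibroblast markers were between 12055 and 15148 against 9333 to 12313, and those of the 6 macrophage markers between 570.1 and 862.4 against 438.3 to 831.0. The 4 red blood cell markers summed to between 30.0 and 66.9 against 38.3 to 55.5. The groups overlapped in each of these sums. Of the single markers, the high-NFMP group lay wholly above the low-NFMP group in 1 of 8 endothelial, 0 of 6 fibroblast and 2 of 6 macrophage markers, beside 7.97% of all tested genes, and wholly below it in 1, 1 and 0, beside 9.16%. The log2 differences were positive for 5, 5 and 4 markers of these lists, and 0 markers passed the threshold by edgeR, DESeq2 or limma, with 1 in each list at an unadjusted p below 0.05 by edgeR. The part of cell type make-up in the values of the 10 genes was not tested.

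**Figure D5:**
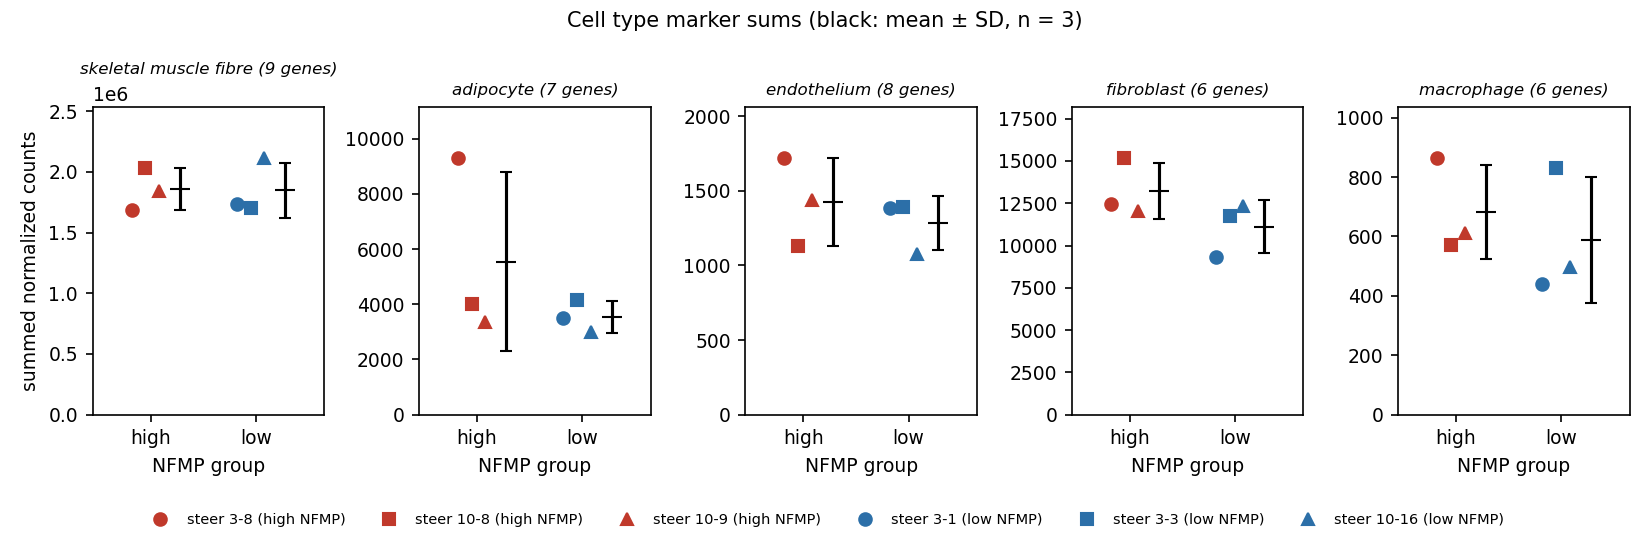
Summed normalized counts (vertical axes from 0, a separate scale in each panel) of the markers of 5 cell types in each steer, with group means and SD in black (n = 3). The groups overlap in each panel, and the adipocyte sum of steer 3-8 stands apart at 9282.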

How the data were processed

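LT libraries of 3 high-NFMP and 3 low-NFMP steers were compared, with groups taken from the sample labels. From 3′ mRNA libraries, the authors deposited unscaled counts of reads for each gene symbol. Their methods name Tophat2 with HTSeq on UMD3.1 in one place and Bowtie2 in another, where reads that aligned once or several times were used, while the submitters' processing notes name Bowtie2 and bedtools. No source says if strand was used to count, so it is not known whether reads of overlapping genes such as DEPP1 and RASSF4 were kept apart.

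The counts were fitted in R 4.3.3 with edgeR 4.0.16 (minimum count 10, minimum total 15, TMM factors between 0.915 and 1.083, robust dispersions, quasi-likelihood test, Benjamini-Hochberg adjustment over 15039 rows). The 176 extra rows of repeated symbols were kept as separate rows. An exact permutation test of 3 against 3 cannot give a p below 0.1. The procedures were tested on simulated counts. Counts below 100 carry a sizeable counting error, and no molecular identifiers were used to tell duplicate reads from molecules. Standard errors come from the fold change and the F statistic. Gene neighbours came from the RefSeq table of ARS-UCD2.0, whose coordinates are not printed because the build differs.

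The 10 genes and the 4 lists were chosen with earlier results of these data known. Named were the 10 genes, list genes past the threshold, the 3 most counted genes of each list (1 is not reported here), neighbours of DEPP1 and RASSF4, and the 5 genes nearest DEPP1 in pattern. INSR, SESN1, PPARGC1A, MDM4, FOXO6, GADD45B, TRIM54, TRIM55 and the adipocyte markers were named after their values were seen. Alternatives were other size factors and filters, DESeq2 1.42.0, quantile normalization of log2(count + 1) with limma 3.58.1, a term for the label number or for age, and leaving out single steers. The subtraction of DEPP1 from RASSF4 counts was chosen after seeing the data.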

Additional observations from a re-analysis of the deposited data

How the results depend on the processing

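DEPP1, RASSF4 and GADD45A, the 3 of the 10 genes past the threshold, passed it with each other size factor, filter, tool and added term, and 2 of them passed without steer 10-8. The log2 fold changes kept their sign in each of the 14 alternatives for DEPP1, RASSF4, FOXO4, FBXO32, GADD45A and CDKN1B. With age as a term FBXO32 was at 0.71 and FBXO30 turned from -0.37 to 0.21, and the cause was not tested. The 5 listed pathway genes past the threshold became 3 with quantile normalization and limma and 1 (PIK3IP1) with a term for the first label number, 7 with age as a term (IRS2, MYOG and PIK3IP1 with GADD45B, MDM4, PPARGC1A and SESN1), and between 3 (without steer 10-9 or 3-3) and 8 (without steer 3-8) with a steer left out. Over all genes, 586 were past the threshold, 969 without a filter and 364 with at least 10 counts in each library, and between 630 and 744 with a steer left out. At an adjusted p below 0.05 there were 103 genes, 240 without a filter, 287 with DESeq2, 31 with age as a term, 33 without steer 3-8, 41 without 10-8, 28 without 3-3 and 63 without 10-16, with a highest count of 82 without 3-1. The fits without a filter or with a higher minimum test more or fewer genes, and those without a steer have fewer samples. The difference in the log2 ratio of DEPP1 over RASSF4 lay between 0.08 and 0.33 with a steer left out, and it was above the SD between steers of 0.24 without steer 3-8 (0.32) or 10-16 (0.33). No paired analysis was possible because the steers are different animals and the labels give no replicate numbers; the first label number, which steers of both groups share, was fitted as a term instead. Between 42 and 78 counts of DEPP1 in a low-NFMP library limit the precision of its fold change.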

Other observations

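Within each group, the steers followed the same order for DEPP1, FOXO1 and FOXO3, a pattern seen only after the values were examined. In the high-NFMP group the order from the lowest to the highest normalized count was 10-8, 3-8 and 10-9 for each of the 3 genes, and in the low-NFMP group it was 3-1, 3-3 and 10-16. For FOXO1, steers 10-8 and 3-8 were close, at 4641 and 4702 normalized counts where the group's SD was 358. In likeness of pattern to DEPP1, FOXO3 ranked only 4301 and FOXO1 6678. Of the 15038 other tested genes, 370 (2.46%) had the order of DEPP1 in both groups. These included 2 of the 9 other genes described above, FOXO1 and FOXO3, and 0 of the 33 tested FOXO targets of the longer list. The 2 steers at the top, 10-9 and 10-16, carry the same first label number, as does 10-8, which was the lowest of its group. In the low-NFMP group RASSF4 differed from this order by less than 2 normalized counts, with 75.0 in steer 3-3 and 76.6 in steer 3-1.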
